A study of Mus musculus with 18 samples.

Results

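Aldh1l1, S100b, Fgfr3, Ntsr2, Htra1, Cldn10 and Clu are 7 genes widely used to recognise mouse astrocytes. They were chosen by name, and 7 of 7 were found among the 23924 genes read and passed the filter on low values. They were followed in RNA-seq libraries of astrocytes from the primary motor cortex (M1) of wild-type C57BL/6 mice that learned, or did not learn, to push a lever for water. There were 18 libraries, 6 from naive mice with no training (12 to 21 weeks old), 6 from novice mice trained for 3 days (11 to 13 weeks) and 6 from expert mice with full training (13 to 15 weeks). Each stage had 2 libraries labelled female and 4 labelled male. The design text speaks of water restriction before training, and does not say whether the naive mice were restricted too. The labels name neither the way the cells were isolated nor whether each library is 1 animal, so p-values measure the spread between libraries.

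Astrocytes clear glutamate and potassium from around synapses, and they supply neurons with lipids, metabolites and secreted proteins. The 7 genes belong to different arms of that work. Aldh1l1 is a cytosolic enzyme of folate metabolism, and S100b is a small calcium-binding protein that is also secreted. Fgfr3, a receptor tyrosine kinase for fibroblast growth factors, and Ntsr2, a G protein-coupled receptor for neurotensin, sit in the plasma membrane. Htra1 is a secreted serine protease that acts on matrix proteins and on growth factors of the TGF beta family. Cldn10 belongs to the claudins, membrane proteins of tight junctions. Clu (clusterin, or apolipoprotein J) is a secreted chaperone carried on lipoprotein particles.

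The stretch upstream of the start of transcription is shown for Aldh1l1 and S100b, the least abundant of the 7 and the one whose log2 level varied most between libraries, and for both annotated starts of Cldn10, since the table has 1 row for that gene and cannot tell its starts apart. Sequences are from RefSeq on GRCm38.p6, all on the + strand, and cover the 250 bases before each start, at chr6:90550543-90550792 for Aldh1l1, chr10:76253586-76253835 for S100b, chr14:118787621-118787870 for the upstream start of Cldn10 and chr14:118854700-118854949 for the downstream one. Capitals mark CCAAT on either strand.
Aldh1l1: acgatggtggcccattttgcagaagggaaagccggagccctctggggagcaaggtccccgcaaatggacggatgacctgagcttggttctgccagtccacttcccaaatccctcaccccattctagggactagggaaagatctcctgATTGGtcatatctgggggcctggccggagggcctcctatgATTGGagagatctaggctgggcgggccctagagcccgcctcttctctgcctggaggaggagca
S100b: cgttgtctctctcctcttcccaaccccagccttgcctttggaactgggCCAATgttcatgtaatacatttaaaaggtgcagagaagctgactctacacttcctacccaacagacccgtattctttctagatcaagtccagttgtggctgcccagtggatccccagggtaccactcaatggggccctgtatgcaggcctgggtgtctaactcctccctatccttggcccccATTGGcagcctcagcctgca
Cldn10, upstream start: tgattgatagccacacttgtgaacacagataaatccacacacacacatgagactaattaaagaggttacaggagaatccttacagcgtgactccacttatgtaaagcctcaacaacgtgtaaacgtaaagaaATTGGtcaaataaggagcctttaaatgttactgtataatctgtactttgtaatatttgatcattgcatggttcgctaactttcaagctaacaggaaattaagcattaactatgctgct
Cldn10, downstream start: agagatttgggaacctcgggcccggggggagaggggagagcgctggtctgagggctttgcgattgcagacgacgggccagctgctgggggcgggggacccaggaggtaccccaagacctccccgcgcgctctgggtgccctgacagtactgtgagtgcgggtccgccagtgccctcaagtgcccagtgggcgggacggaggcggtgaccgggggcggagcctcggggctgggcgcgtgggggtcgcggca

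Promoter entries were found for 6 of the 7 genes (8 starts). CCAAT occurred at 2 places in Aldh1l1, 63 and 103 bases before the start, and at 2 places in S100b, 20 and 202 bases before it. It occurred once each in Htra1, in 1 of the 2 starts of Fgfr3 and in the upstream start of Cldn10, and at no place in Ntsr2. Of all 32851 promoters of this length, 33.9% held it. S100b also had 3 places with TTGGC or its reverse complement GCCAA, 2 of which overlap a CCAAT match (those inside ATTGGC and GCCAAT), and 41.5% of all promoters held this motif. TATAAA, held by 12.4% of promoters, was in none of the 8 stretches. Searches on both strands also covered TTCNNNGAA, found once in Ntsr2 (7.02% of promoters), and ACAAT (27.7%) and TGANTCA (6.75%), found in none of the 8. The starts of Cldn10 differed in composition, with 36.0% G and C upstream and 72.4% downstream, against a median of 52.4% over all promoters. A match of this kind is a description of the letters and not a site shown to be used.

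All 7 genes were read in 18 of 18 libraries, at FPKM values (fragments per kilobase of transcript, relative to all fragments mapped) from 12.4 to 1738. Clu was the most abundant, at 741 ± 379 FPKM over all libraries (SD, n = 18). It exceeded each of the other 6 genes in 18 of 18 libraries. Htra1 followed at 216 ± 125 FPKM and Ntsr2 at 122 ± 60.5 FPKM, and Htra1 was above Ntsr2 in 18 of 18 libraries. S100b at 77.9 ± 43.4 FPKM, Fgfr3 at 75.7 ± 42.2 FPKM and Cldn10 at 72.9 ± 34.4 FPKM had no fixed order. S100b was above Fgfr3 in 10 of 18 libraries and above Cldn10 in 9, and Fgfr3 was above Cldn10 in 11. Ntsr2 was above Cldn10 in 17 of 18. Aldh1l1 was the least abundant, at 36.4 ± 15.2 FPKM, and lay below each of the other 6 in 18 of 18 libraries. The smallest such gap was to S100b in novice 6, where S100b was 1.01 times as high.

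Markers of other cell types were read beside those of astrocytes. The neuron markers summed to 195 to 1245 FPKM in naive, 220 to 1649 FPKM in novice and 250 to 1509 FPKM in expert mice over 15 genes. The 15 endothelial markers summed to 373 to 558 FPKM in naive, 277 to 671 FPKM in novice and 393 to 1173 FPKM in expert mice. Microglial markers (14 genes) summed to 42.5 to 118 FPKM and oligodendrocyte lineage markers (16 genes) to 154 to 326 FPKM, where Mog, a defining gene of mature oligodendrocytes, averaged 1.30 FPKM. Markers of pericytes, smooth muscle and fibroblasts summed to 138 to 440 FPKM, of ependyma and choroid plexus to 37.8 to 193 FPKM and of blood to 4.93 to 36.7 FPKM. None of these lists had a gene at 0 in all libraries. The microglial genes Tmem119 and P2ry12 averaged 1.11 and 3.47 FPKM and the haemoglobin genes Hba-a1 and Hbb-b1 0.0095 and 0.0020 FPKM, so that these sums do not show microglia or blood cells to be present. Between 2257 and 5430 genes were at 0 in a library, and the noncoding RNA Bc1 took 6.01% to 59.6% of the summed FPKM. Genes of families not used by brain cells (odorant, pheromone and taste receptors, keratin-associated proteins and defensins, 1596 genes) stood at a mean log2(FPKM + 1) of 0.17 to 1.87, here called the silent-gene signal. The libraries were divided in 2 classes at a gap in this signal, a choice made after it was seen, with 8 libraries at 1.51 to 1.87 (2 naive, 4 novice, 2 expert) and 10 libraries at 0.17 to 1.23 (4 naive, 2 novice, 4 expert). Within the second class a wider gap parted expert 3, at 0.17, from the next library at 0.70. In 2 libraries, novice 1 (labelled female) and novice 3 (labelled male), Xist and Ddx3y, transcripts of the inactive X and of the Y chromosome, went against the labelled sex.

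Aldh1l1 stood at 12.4 to 60.9 FPKM (median 41.8) in naive, 19.5 to 33.5 FPKM (median 29.4) in novice and 23.0 to 72.4 FPKM (median 40.2) in expert mice. Novice libraries covered a narrow range, with a coefficient of variation of 18.6%, against 46.5% in naive and 40.7% in expert mice. The highest value was in expert 3 and the lowest in naive 6, and the ranges of the 3 stages overlapped. S100b stood at 21.4 to 148 FPKM (median 110) in naive, 28.3 to 110 FPKM (median 39.6) in novice and 31.6 to 129 FPKM (median 80.7) in expert mice. In naive mice 4 libraries lay at 103 FPKM or more and the other 2 at 21.4 and 33.7 FPKM, and in novice mice 2 lay at 92.8 and 110 FPKM and the other 4 at 28.3 to 47.4 FPKM. S100b thus had no narrow novice range, and its stages overlapped as well.

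Of the receptors, Fgfr3 stood at 27.8 to 123 FPKM (median 86.0) in naive, 35.7 to 67.5 FPKM (median 43.7) in novice and 48.0 to 198 FPKM (median 87.6) in expert mice. Ntsr2 stood at 88.5 to 191 FPKM (median 117) in naive, 62.9 to 124 FPKM (median 73.7) in novice and 85.3 to 314 FPKM (median 139) in expert mice. For both receptors the lowest median was the novice one, and the ranges overlapped in every pair of stages. Of the secreted proteins, Htra1 stood at 107 to 346 FPKM (median 192) in naive, 108 to 213 FPKM (median 131) in novice and 170 to 631 FPKM (median 217) in expert mice. Clu stood at 380 to 1383 FPKM (median 749) in naive, 409 to 905 FPKM (median 439) in novice and 453 to 1738 FPKM (median 806) in expert mice. The top value of each was in expert 3, where Htra1 stood at 631 FPKM and in the next expert library at 297 FPKM. Cldn10, the junction gene, stood at 49.1 to 132 FPKM (median 70.9) in naive, 41.0 to 81.2 FPKM (median 51.6) in novice and 43.1 to 165 FPKM (median 76.6) in expert mice, again with overlapping ranges.

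**Figure D1:**
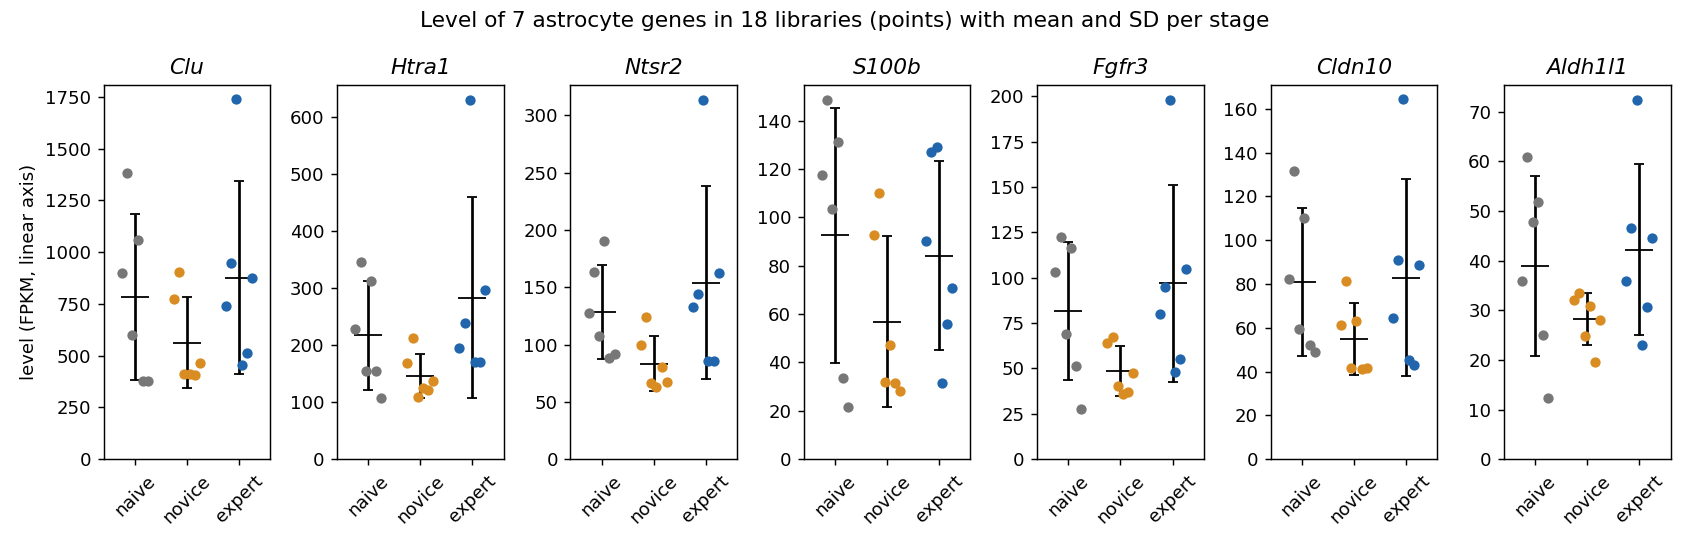
Level of each gene in FPKM (linear axes from 0, one scale per gene) in the 18 libraries, with naive libraries in grey, novice in orange and expert in blue. Points are libraries in order of replicate number, and bars are the mean and SD of the 6 libraries of a stage. Novice values sit low and close together for most genes, while expert 3 stands at the top of the expert group.

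Novice against naive mice, a comparison of 3 days of training with none, gave lower averages for 7 of the 7 genes. These stages also differ in age and in the silent-gene signal, and water restriction of the naive mice is not known. A log2 fold change below 0 was found for 43.0% of the 21745 tested genes, and 0% of them passed the threshold of an adjusted p of 0.05 (limma, Benjamini-Hochberg over all tested genes). S100b averaged 56.9 ± 35.5 FPKM in novice and 92.6 ± 52.7 FPKM in naive mice (SD, n = 6 each), with a log2 fold change of -0.60 (SE 0.50, limma adjusted p = 0.89). Fgfr3 averaged 48.6 ± 13.9 FPKM in novice and 81.7 ± 38.3 FPKM in naive mice, with a log2 fold change of -0.62 (SE 0.37). The other 5 had log2 fold changes of -0.31 (SE 0.33) for Aldh1l1, -0.39 (SE 0.44) for Clu, -0.50 (SE 0.36) for Htra1, -0.50 (SE 0.33) for Cldn10 and -0.60 (SE 0.31) for Ntsr2. None of the 7 differences passed, with limma adjusted p at 0.89 for each, and none had an unadjusted p under 0.05, which 4.60% of all tested genes had. With array weights, which count libraries far from their group less, S100b stood at -1.17 and 6 of the 7 had an unadjusted limma p under 0.05, with limma adjusted p of 0.139 to 0.221. Over the 31 other settings, 485 to 5394 of the 21745 tested genes had such an unadjusted p in this comparison. The share under array weights alone is not given here, so the 6 of 7 cannot be set against it. With age as a covariate the median over the 7 was -0.28. The median over the 7 was -0.50, beside 0.071 over all tested genes and -0.22 over the 1088 genes at least as abundant as Aldh1l1. In these bulk libraries, a smaller share of astrocytes and less RNA of these genes per astrocyte cannot be told apart.

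Expert against naive mice, a comparison of full training with none, gave small differences for the 7 genes. Log2 fold changes ran from -0.018 (SE 0.33) for Cldn10 to 0.33 (SE 0.36) for Htra1, with 6 of 7 above 0, where 43.9% of all tested genes lay. Aldh1l1 averaged 42.2 ± 17.2 FPKM in expert and 39.0 ± 18.1 FPKM in naive mice, a log2 fold change of 0.19 (SE 0.33), and S100b 84.2 ± 39.1 FPKM in expert and 92.6 ± 52.7 FPKM in naive mice, a log2 fold change of 0.017 (SE 0.50). The 95% intervals of the fit still allowed sizeable differences, from -0.51 to 0.88 for Aldh1l1 and from -1.02 to 1.06 for S100b. None passed (limma adjusted p = 0.9996 for each, 0% of all tested genes called), and none had an unadjusted p under 0.05, as 2.86% of all genes did. Of the 15 endothelial markers 15 had log2 fold changes above 0, with a median of 0.55, and 14 of the 15 neuron markers lay below 0, and their part in the values of the 7 genes was not tested. Without expert 3 the median over the 7 genes was -0.041, beside 0.19 with it.

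Expert against novice mice gave the largest differences, with 7 of 7 genes higher in expert mice, where 40.4% of all tested genes lay above 0. Ntsr2 averaged 154 ± 84.3 FPKM in expert and 83.4 ± 24.2 FPKM in novice mice, a log2 fold change of 0.77 (SE 0.31). Fgfr3 averaged 96.8 ± 54.2 FPKM in expert and 48.6 ± 13.9 FPKM in novice mice, a log2 fold change of 0.87 (SE 0.37). Htra1 averaged 284 ± 177 FPKM in expert and 145 ± 38.8 FPKM in novice mice, a log2 fold change of 0.82 (SE 0.36). These 3 had an unadjusted limma p of 0.023 to 0.032, in a comparison where 4.88% of all tested genes were higher with a p under 0.05. None passed after adjustment (limma adjusted p = 0.449 for each), and 0% of all tested genes did. S100b at 0.62 (SE 0.50), Clu at 0.57 (SE 0.44), Aldh1l1 at 0.50 (SE 0.33) and Cldn10 at 0.48 (SE 0.33) lay lower. The median over the 7 was 0.62, beside -0.14 over all tested genes and 0.20 over those at least as abundant as Aldh1l1. All 15 endothelial markers also had log2 fold changes above 0, with a median of 0.52, and their part in the differences of the 7 genes was not tested. A moderated F test over the 3 stages gave limma adjusted p-values of 0.754 to 0.793 for the 7 genes.

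The class of silent-gene signal divided these genes more sharply than the stage did. The 8 libraries with the higher signal lay below the 10 with the lower signal, with no overlap, for 5 of the 7 genes, as 5.89% of all tested genes did. S100b stood at 21.4 to 56.1 FPKM in the 8 libraries with the higher signal and 71.0 to 148 FPKM in the 10 with the lower signal, a difference in mean log2(FPKM + 1) of -1.67. Clu stood at 380 to 512 FPKM in the 8 libraries with the higher signal and 599 to 1738 FPKM in the 10 with the lower signal. Aldh1l1, Fgfr3 and Ntsr2 did not overlap either, while Htra1 and Cldn10 did, and the differences of these 6 genes ran from -0.90 for Aldh1l1 to -1.18 for Fgfr3. Genes at least as abundant as Aldh1l1 also lay lower with the higher signal, with a median difference of -0.91 and 374 of 1088 without overlap, while the median over all tested genes was 0.37. The 7 genes lay at a median of -0.92, with 5 of 7 without overlap. The 30 other astrocyte genes described below lay at a median of -1.10, with 22 of 30 without overlap.

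Since 4 of 6 novice libraries, against 2 of 6 in each of the other stages, had the higher signal, stages were also compared within a class. Within the 10 libraries with the lower signal, 7 of 7 genes were lower in the 2 novice than in the 4 naive libraries, by -0.17 for Clu to -0.61 for Fgfr3 on the log2 scale. Within the 8 with the higher signal, 3 of 7 were lower in the 4 novice than in the 2 naive libraries. There the differences ran from -0.39 for Ntsr2 to 0.51 for Aldh1l1. Expert against novice kept its direction for 7 of 7 genes among libraries with the lower signal (0.0047 for S100b to 0.77 for Fgfr3) and for 6 of 7 among those with the higher signal, with Cldn10 at -0.054 and Htra1 highest at 0.47. These splits hold as few as 2 libraries a stage and carry no test. With the silent-gene signal as a covariate in the fit, the 7 genes had a median log2 fold change of -0.20 in novice against naive mice. It was -0.0028 in expert against naive and 0.025 in expert against novice mice. Fgfr3, Ntsr2 and Htra1 then stood at 0.30, 0.33 and 0.33 for expert against novice, and the other 4 at -0.14 to 0.025.

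**Figure D2:**
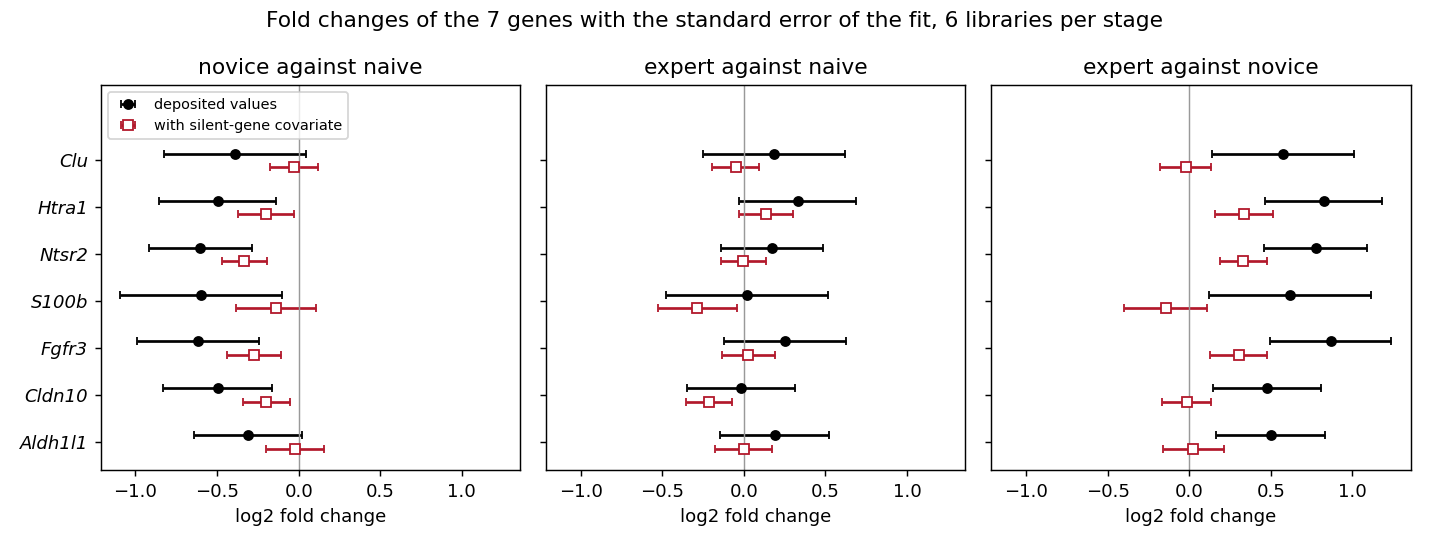
Log2 fold changes of the 7 genes in the 3 comparisons, on a common axis. Filled circles are from the fit of the deposited values and open squares from the fit with the silent-gene signal as a covariate, and bars are standard errors. Circles lie left of 0 for novice against naive and right of 0 for expert against novice, and the squares lie closer to 0 in both.

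The 30 other astrocyte genes, among them the glutamate transporters Slc1a2 and Slc1a3, the gap junction gene Gja1 and the water channel Aqp4, went the same way. For novice against naive 29 of 30 had a log2 fold change below 0 (median -0.56), and Agt, the angiotensinogen gene, was the exception at 0.44. For expert against novice 29 of 30 lay above 0 (median 0.78), again except Agt, at -0.24. Ednrb, an endothelin receptor, stood at 0.85 (SE 0.26), Sox9, a glial transcription factor, at 0.90 (SE 0.29) and the amino acid carrier Slc7a10 at 0.83 (SE 0.28). Of the 30, 0 passed in any comparison (limma adjusted p of 0.449 or more).

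The level of each of the 7 genes was therefore also taken relative to the mean log2(FPKM + 1) of these 30 genes in the same library. On that scale Clu lay 2.79 ± 0.08 above the other astrocyte genes in expert and 2.96 ± 0.09 above them in novice mice (SD, n = 6 each), a difference of -0.16 (exact permutation test over 924 splits, two-sided p = 0.0065, adjusted p = 0.14 over 21 tests). Cldn10 lay at -0.60 ± 0.11 in expert and -0.34 ± 0.25 in novice mice, a difference of -0.26 (exact p = 0.015, adjusted p = 0.16), and against naive mice, at -0.36 ± 0.23, the difference was -0.24 (exact p = 0.041, adjusted p = 0.29). The ranges of the stages overlapped for each gene, and of the 21 tests 3 had an unadjusted p under 0.05 and 0 passed. Novice 4 had the highest relative level of both Cldn10 and Aldh1l1, at 0.13 and -0.87. Without that library the difference of Cldn10 between expert and novice mice was -0.17, and that of Clu was -0.19.

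**Figure D3:**
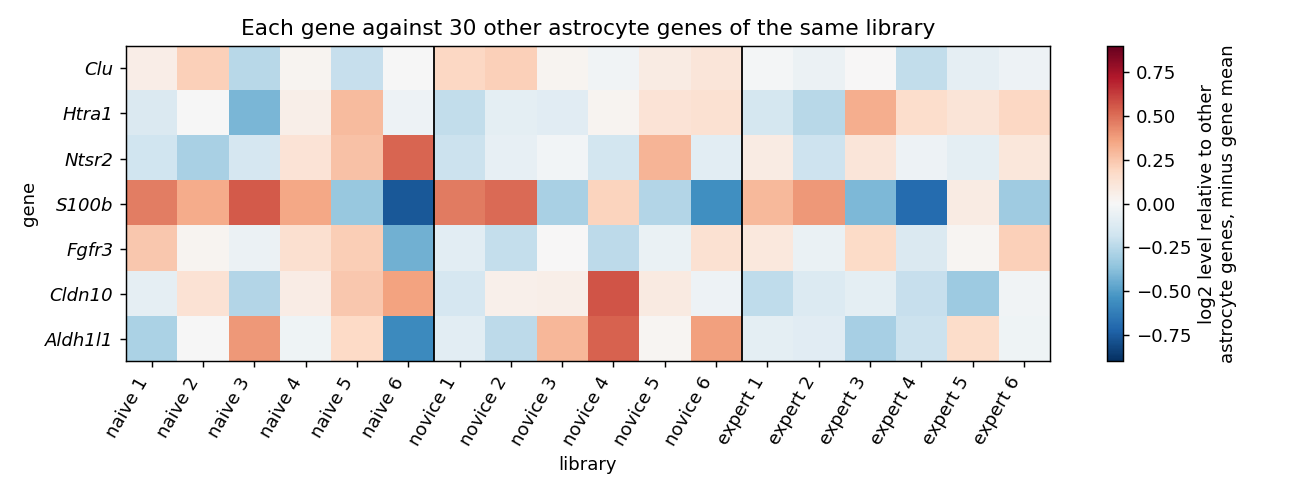
Log2 level of each gene minus the mean of the 30 other astrocyte genes of the same library, centred on the gene's own mean over the 18 libraries (red above, blue below). Columns are libraries in stage order, separated by black lines. S100b varies most from library to library, and Clu least.

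S100b varied most on this scale, with an SD of 0.45 over 18 libraries, against 0.14 for Clu, the steadiest, and 0.18 to 0.28 for the other 5. Its relative level went with the neuron markers. Among the 10 libraries with the lower silent-gene signal, Pearson's r was 0.85 (permutation p = 0.0014, adjusted p = 0.029 over 42 relations) and Spearman's rho 0.85 (permutation p = 0.0029, adjusted p = 0.061). Without the 2 libraries farthest from the median, expert 3 and expert 1, r was 0.81. Among the 8 libraries with the higher signal, r was 0.81 (exact permutation p = 0.018, adjusted p = 0.10) and rho 0.71 (exact permutation p = 0.058), but r was 0.29 without expert 5 and novice 4, so that there the relation rests on those libraries. With the endothelial markers, S100b had an r of -0.91 among the 10 libraries (permutation p = 0.00075, adjusted p = 0.029), a rho of -0.87 (permutation p = 0.0021, adjusted p = 0.061) and an r of -0.73 without expert 6 and expert 3. Among the 8 libraries it was 0.57 (exact permutation p = 0.15, adjusted p = 0.42), with rho at 0.40 and r at 0.60 without expert 4 and novice 5.

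Fgfr3 and Htra1 ran the other way, with r of -0.71 and -0.73 (rho -0.76 and -0.60) against the neuron markers among the 10 libraries with the lower signal, and -0.82 and -0.67 without the same 2 libraries (permutation p = 0.020 and 0.018, adjusted p = 0.10 for both). Among the 8 they were at -0.078 and -0.040. Of the 42 relations, which were examined after the values had been seen, 2 passed on Pearson's r, both of S100b. In the 10 libraries S100b was thus higher, relative to other astrocyte genes, where neuron markers were higher and endothelial markers lower. These relations pool the stages. Among the 10, novice 1 and novice 2 had the highest means of neuron markers (5.53 and 5.49) and the lowest of endothelial markers (3.96 and 4.16). Expert 3, expert 1 and expert 6 had the lowest neuron and the highest endothelial means. The 2 relations of S100b are thus not independent results. The part of other cells and of the stage in the level of S100b was not tested.

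**Figure D4:**
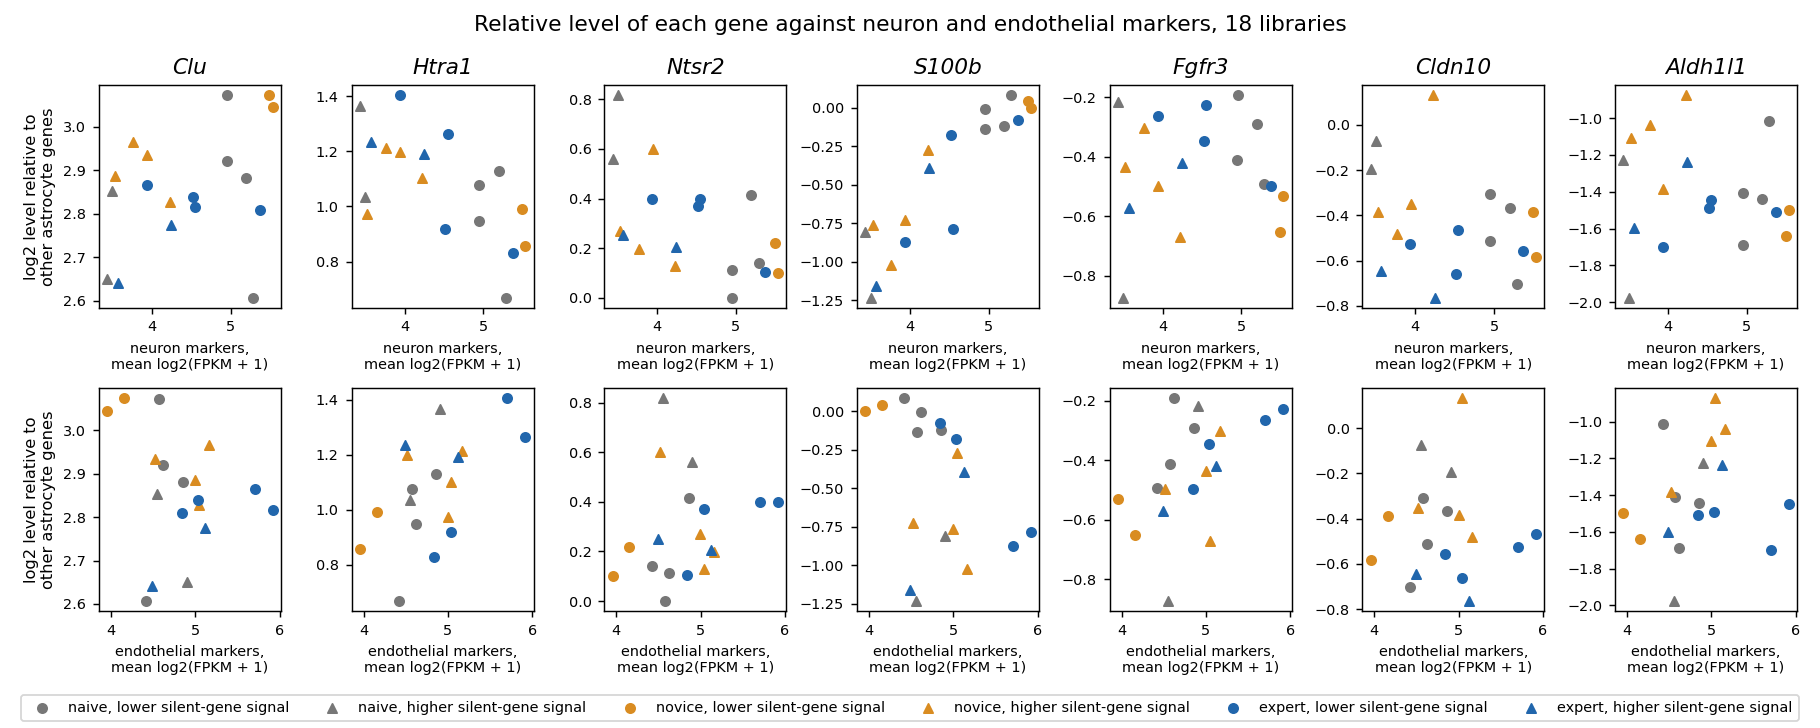
Relative log2 level of each gene (as in the map of relative levels) against the mean log2(FPKM + 1) of 15 neuron markers (top row) and 15 endothelial markers (bottom row) in 18 libraries. Circles are the 10 libraries with the lower and triangles the 8 with the higher silent-gene signal, with naive in grey, novice in orange and expert in blue. S100b climbs with the neuron markers, while Fgfr3 and Htra1 lie lower at the right of their panels among the circles.

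Across the 18 libraries the log2 levels of the 7 genes went together, with Pearson's r from 0.77 (S100b with Htra1, S100b with Ntsr2 and Aldh1l1 with Ntsr2) to 0.96 (Fgfr3 with Htra1). These points share library composition and depth and fall into the 2 classes of silent-gene signal. Among the 10 libraries with the lower signal, r ran from 0.38 (S100b with Ntsr2) to 0.97 (Cldn10 with Clu, Htra1 with Ntsr2), where the 6 pairs with S100b reached 0.62 at most and the other pairs 0.73 at least. Among the 8 with the higher signal it ran from -0.56 (Aldh1l1 with Ntsr2) to 0.86 (Fgfr3 with Htra1), the pair that was close in both classes. Of 10436 genes with a mean of at least 5 FPKM, those most like Clu were Pla2g7, Ttyh1 and Apoe (r of 0.99 each). S100b was close to Ndrg2 and Cpe (0.98 each). Fgfr3 was close to Ssfa2 (0.98) and Slc41a1 (0.97), Ntsr2 was most like Ncam1, Ppap2b and Mfge8 (0.96 each), and Htra1 like Kcnk1, Ncam1 and Ttyh3 (0.97 each). Cldn10 was most like Repin1 and Cst3 (0.97) and Acsl3 (0.96). Aldh1l1 was most like Cdc42ep4 (0.97), Eprs and Calr (0.96 each), and 0 of the 30 other astrocyte genes were among its 50 nearest, against 2 for S100b and 8 to 10 for the other 5.

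Levels within families were compared by FPKM, which is per length. Fgfr3 exceeded Fgfr1 (22.1 FPKM on average over 18 libraries), Fgfr2 (17.4 FPKM) and Fgfr4 (1.53 FPKM) in 18 of 18 libraries, by a median of 3.32 times for Fgfr1. Ntsr2 exceeded the other G protein-coupled neurotensin receptor, Ntsr1 (1.30 FPKM), in 18 of 18, and the peptide gene Nts averaged 0.951 FPKM and was at 0 in 7 libraries. Htra1 exceeded Htra2, Htra3 and Htra4 (3.15 to 3.25 FPKM) in 18 of 18 libraries, with Htra4 at 0 in 1 of them. Aldh1l1 exceeded its mitochondrial counterpart Aldh1l2 (2.36 FPKM) in 18 of 18. Cldn10 exceeded 19 of 20 other claudins in 18 of 18 libraries, and Cldn5, the claudin of brain endothelium, in 15 of 18 (40.3 FPKM). S100b was not the leading S100 gene. S100a1, another calcium-binding member, averaged 159 FPKM and was above S100b in 18 of 18 libraries, S100b reaching 0.305 to 0.669 times its level. Apoe, the main apolipoprotein of astrocytes, averaged 3766 FPKM, and Clu stood at 0.173 to 0.223 times Apoe in all 18 libraries.

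Of the genes around the 7, none passed in any comparison (limma, adjusted over all tested genes). Over all tested genes, 43.0% lay below 0 for novice against naive and 40.4% above 0 for expert against novice. Of 27 genes of FGF signalling, 16 of 27 had log2 fold changes below 0 for novice against naive and 18 of 27 above 0 for expert against novice. The transcription factors Etv5 and Etv4, induced by FGF receptors, stood at 0.54 (SE 0.23) and 0.82 (SE 0.35) for expert against novice, and the ligand Fgf2 at 1.20 (SE 0.47) for novice against naive, with limma adjusted p of 0.449, 0.449 and 0.89. Of 26 genes of folate one-carbon metabolism, the pathway of Aldh1l1, 13 of 26 lay above 0 for expert against novice, with Ftcd, a folate enzyme best known from liver, lowest in p at -1.04 (SE 0.36) and the mitochondrial folate carrier Slc25a32 at 0.55 (SE 0.25). Of the 20 other claudins 17 lay below 0 for expert against novice, as 12955 of all 21745 tested genes did, while Cldn10 lay above it. Cldn18 stood at -0.92 (SE 0.30), Cldn8 at -0.97 (SE 0.32) and Cldn25 at 0.70 (SE 0.25). Cldn18 and Cldn8 averaged 1.27 and 1.45 FPKM, close to 0. Other claudins were as low, such as Cldn3 and Cldn9 at 1.35 and 1.36 FPKM. Of the 13 lipoprotein genes beside Clu, 9 lay above 0 for expert against novice, with the lipid exporter Abca1 at 0.59 (SE 0.24) and the receptor Lrp8 at 0.45 (SE 0.19). In the S100 list, which also counts S100pbp, the gene of an S100-binding protein, 10 of 15 lay below 0 for novice against naive and 11 above 0 for expert against novice. S100a4 stood at -1.51 (SE 0.66) and S100a14 at 1.29 (SE 0.44) in novice against naive mice. Both were low, with S100a4 at 5.73 FPKM on average and at 0 in 4 libraries. S100a14 averaged 1.09 FPKM and was at 0 in 9 libraries. Of the 7 genes of the neurotensin system 4 lay below 0 for novice against naive and 4 above 0 for expert against novice, with the sorting receptors Sorcs3 at -0.45 (SE 0.19) in expert against naive and Sorcs1 at -0.47 (SE 0.21) in expert against novice mice. Of the 16 genes of the HtrA and TGF beta list, 9 lay above 0 for novice against naive and 6 for expert against novice, with Tgfb2, a ligand, at 0.51 (SE 0.21) and Smad7, an inhibitor of the pathway, at 0.40 (SE 0.24) for expert against naive.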

How the data were processed

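The authors deposited 1 table of the series with a value per gene and library in FPKM, although its title speaks of normalized counts. Low values fall with transcript length, as FPKM values do. Reads were processed with TopHat and Cufflinks on mm9, per the submitters' processing notes, and libraries were made with a stranded total RNA kit, per the labels' protocols. The sources used here give no versions, options or read totals. By the steps between low values, 1 fragment on 1 kb was worth 0.599 to 1.86 FPKM outside expert 3. In expert 3 the step was 0.281 FPKM, which is less certain because few low values were present there. Of 23951 entries, 27 turned into dates were left out, and 21745 genes were tested, those reaching 1 FPKM in 6 or more of 18 libraries.

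Values were taken as log2(FPKM + 1), so that fold changes of low genes are understated, and fitted in limma 3.58.1 (R 4.3.3, lmFit and eBayes with a trend) with 1 mean per stage. Tests were two-sided, adjusted over all tested genes by Benjamini and Hochberg with a threshold of 0.05, and the fit was tested on simulated data. Relative levels were compared by exact permutation. Genes named are the 7, the 3 genes most like each (for S100b and Fgfr3 1 of these is not reported here), and up to 3 per list with the smallest p, while genes given for their family level were chosen after their values were seen. The 7 genes and the lists were chosen with earlier results of these data known. The alternatives were other pseudocounts, filters and scalings, covariates, array weights, a replicate block and leaving out libraries.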

Additional observations from a re-analysis of the deposited data

Results flagged for a closer look

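Among 42 groups of 6 libraries examined for a library far from the others, 4 had one. The rule flags about 1 in 20 groups of independent, normally distributed values. These groups share libraries and hold genes that went together, so that rate does not apply here. In expert mice, expert 3 stood apart for Ntsr2, at 314 FPKM against 163 FPKM in the next library, and for Htra1, at 631 FPKM against 297 FPKM. Relative to the other astrocyte genes, novice 5 stood apart for Ntsr2, at a log2 level of 0.60 against 0.27 in the next novice library. On the same scale novice 4 stood apart for Cldn10, at 0.13 against -0.35. Expert 3 also had the lowest silent-gene signal of all libraries, and its part in these values was not tested.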

How the results depend on the processing

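No gene was called in any comparison under the 31 other settings, among which the filters on low values change how many genes are tested. The lowest limma adjusted p of any of the 7 genes was 0.107, for Fgfr3 in expert against novice mice with array weights. Unadjusted p under 0.05 were found for 485 to 5394 genes in novice against naive, 354 to 1398 in expert against naive and 972 to 6083 in expert against novice. No setting reversed novice against naive for any of the 7. The replicate block, labelled sex as a covariate and the filters could not do so, since they leave the fold change of a gene as it was. For expert against naive, Cldn10 turned to 0.072 with trimmed mean of M values factors, 0.048 with quantile normalization, 0.054 with age as a covariate and 0.055 with the neuron markers as a covariate. The silent-gene covariate turned S100b to -0.28, Ntsr2 to -0.0028 and Clu to -0.050, and array weights turned Aldh1l1 to -0.041 and S100b to -0.31. For expert against novice, the silent-gene covariate turned S100b to -0.14, Cldn10 to -0.016 and Clu to -0.021. Array weights brought the median over the 7 genes to -0.67 between novice and naive mice (reported as -0.50), to 0.021 between expert and naive mice (0.19) and to 0.84 between expert and novice mice (0.62), and S100b to -1.17 between novice and naive mice. Age as a covariate brought the median to -0.28 between novice and naive mice. The causes were not tested. The neuron covariate, and leaving out both libraries whose sex transcripts went against the label, were chosen after seeing the data, and leaving those out reversed no direction.

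Leaving out 1 library at a time reversed no direction in novice against naive or expert against novice. For expert against naive the log2 fold change ran from -0.094 to 0.35 for Aldh1l1, -0.33 to 0.26 for S100b, -0.020 to 0.42 for Fgfr3, -0.061 to 0.31 for Ntsr2, -0.25 to 0.14 for Cldn10 and -0.041 to 0.38 for Clu. The low ends came without naive 6 for Aldh1l1, S100b and Fgfr3 and without expert 3 for Ntsr2, Cldn10 and Clu. Relative to the other astrocyte genes, it ran in novice against naive from -0.26 to 0.027 for S100b, -0.16 to 0.0071 for Ntsr2, -0.055 to 0.084 for Htra1 and -0.078 to 0.074 for Cldn10. In expert against naive it ran from -0.14 to 0.052 for Aldh1l1, -0.067 to 0.070 for Fgfr3, -0.12 to 0.043 for Ntsr2 and -0.085 to 0.0085 for Clu. Against the median of the other astrocyte genes, Fgfr3 turned to -0.022 in expert against naive, and Ntsr2 to -0.051 and Htra1 to -0.0018 in expert against novice. On that scale Clu passed in expert against novice, at -0.25 (exact permutation, adjusted p = 0.045 over 21 tests), as it did with the mean when novice 4 was left out, at -0.19 (adjusted p = 0.045). Its adjusted p was 0.14 as reported.

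Replicate numbers did not pair the libraries. Of 18 same-numbered pairs, r of their deviations ran from -0.36 to 0.46, and 10 were over 0.1. Each expert library was matched to the naive and to the novice libraries, and each naive library to the novice ones. In 1 of these 18 matches the closest library had the same number. With the replicate block, 0 genes were called, and unadjusted p under 0.05 were found for 1221, 761 and 2963 genes (novice against naive, expert against naive, expert against novice). Each number occurs once per stage, so that the block could not change a fold change of the 7 genes.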
